A study of Homo sapiens with 5 samples.

Results

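The genes that build and organise tight junctions were examined for open chromatin in MCF10A cells. The set comprised 35 named genes, 21 claudins and 14 genes for their partners, of 19383 protein-coding genes in the GENCODE release 44 annotation. Genes were taken by name and not by a limit on any measured value, though earlier results of these data were known. For each gene, 2 kinds of open region were collected: those with a base within 1000 bp of one of the gene's transcription start sites, called promoter hotspots, and those whose nearest protein-coding start site within 100 kb belonged to the gene, called assigned hotspots. The 35 genes had 305 such regions among 181723 in the list.

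MCF10A is a non-tumorigenic human mammary epithelial line. ATAC-seq, in which a transposase cuts and tags accessible DNA, was performed on 5 replicates of this line (numbered 1, 2, 3, 5 and 6), grown with 5% horse serum, 20 ng/ml EGF, 0.5 µg/ml hydrocortisone, 100 ng/ml cholera toxin and 10 µg/ml insulin. The replicates were merged before hotspots were called, so every value below belongs to 1 pooled list with no replicate error, no contrast and unknown depth, and no difference was tested. A score accompanied each hotspot, from 4.36 to 912 with a median of 5.81. The score was used to rank hotspots only, and the share of cells in which a region was open and the degree of its opening cannot be told apart.

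Tight junctions seal the space between neighbouring epithelial cells near their apical border. Claudins are small membrane proteins whose extracellular loops meet those of the next cell, and individual claudins either tighten the seal or form pores for selected ions. Occludin and its relatives, the junctional adhesion molecules, the cytoplasmic ZO and cingulin scaffolds and the Par and Crumbs polarity complexes complete and position the junction. Epithelia differ in the claudins they use, and several claudins are known mainly from kidney, inner ear, endothelium, myelin or stomach.

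Marker genes of several cell types were looked up. Of 7 genes of basal and mammary epithelium, 5 had a promoter hotspot, with scores from 23.7 at EPCAM to 33.2 at LAMA3, and KRT14 and TP63 had none although 17 hotspots were assigned to TP63. The endothelial genes PECAM1, CDH5, KDR and VWF had promoter hotspots with scores from 4.96 to 6.30, and TEK had none. A promoter hotspot was present at 74.7% of all protein-coding genes. The counts of epithelial (71.4%) and endothelial (80.0%) genes thus did not separate the cell types. The epithelial scores lay above the median of 20.7 over all genes with a promoter hotspot, and the endothelial scores below it. Neither the leukocyte genes PTPRC and CD3E nor TFF2 and SFTPC of stomach and lung had one. Of the 3 oligodendrocyte genes only MBP had one, at 18.2, and of the 3 kidney tubule genes only UMOD, at 5.07. Assigned hotspots were not confined to the epithelial genes: CDH5 had 19, with scores up to 39.2, and MBP had 34, up to 29.0. At TP63 the highest assigned score was 21.8.

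A promoter hotspot was found at 26 of the 35 tight junction genes, or 74.3%, and the share over all protein-coding genes was 74.7%. The set as a whole therefore stood at the background. Within it the claudins and their partners differed in count: 13 of 21 claudins had a promoter hotspot (61.9%) and 13 of 14 other genes had one (92.9%). The highest promoter score stood below the general median in both groups. Its median was 13.1 over the 26 genes, 10.1 over the 13 claudins and 16.5 over the 13 partners, against 20.7 over the 14488 genes with a promoter hotspot in all. A score at or above that general median was reached by 7 of the 35 genes (20.0%), whereas 37.6% of all genes reached it. These 7 were PARD6B, CGN, PATJ, F11R, MARVELD2, CLDN7 and CLDN4.

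**Figure D1:**
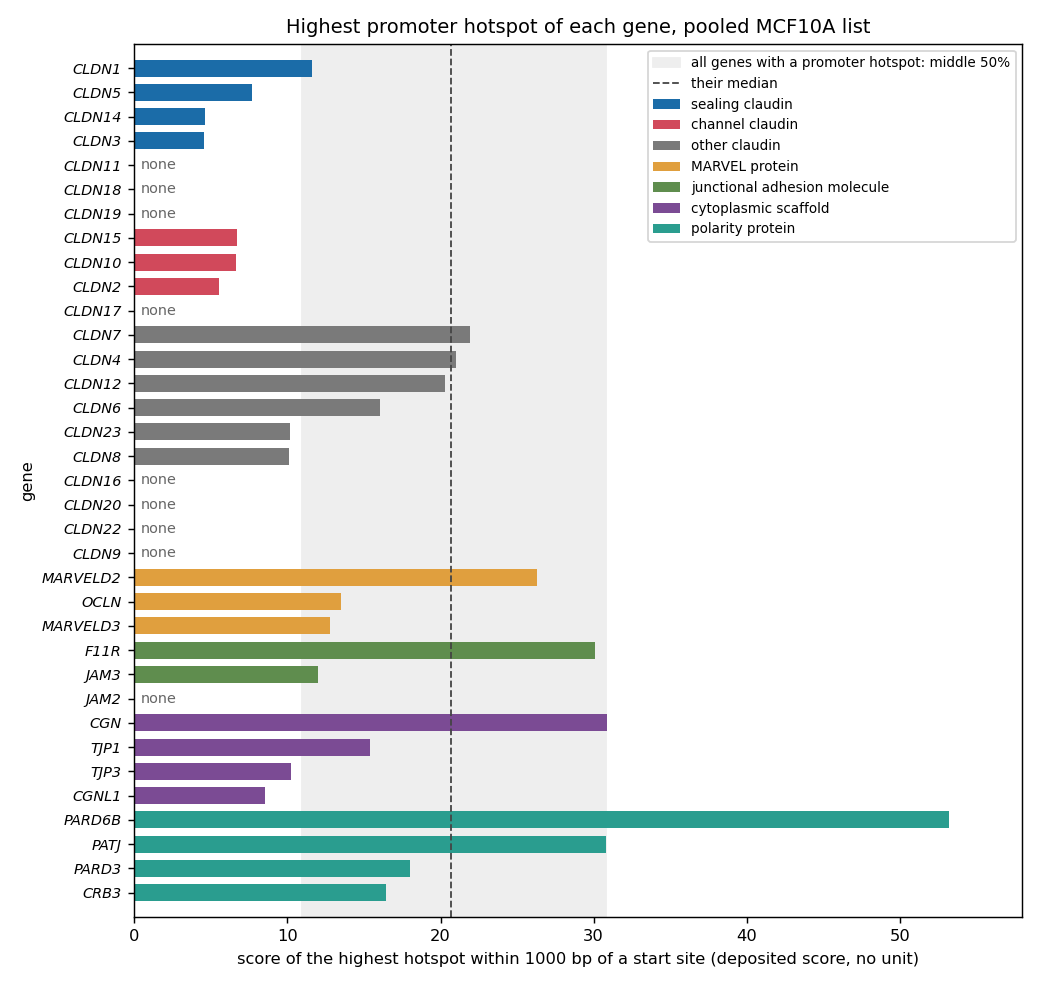
Score of the highest hotspot within 1000 bp of a start site for each of the 35 genes, grouped and coloured by role, with genes that have no such hotspot marked "none". The grey band spans the middle 50% and the dashed line the median (20.7) of the same score over all 14488 genes with a promoter hotspot. All claudins classed here as sealing or channel lie left of the line, and PARD6B reaches 53.2.

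The base composition of the promoters split along the same line. The CpG ratio, the number of CG dinucleotides over that expected from the C and G content within 500 bp of the canonical start site, was at least 0.6 at 8 of the 21 claudins (38.1%) and at 13 of the 14 partners (92.9%). Over the 19335 genes with a canonical start site the share was 66.8%. Among CpG-rich promoters 19 of 21 members had a hotspot (90.5%), beside 89.6% of all CpG-rich genes. Among CpG-poor promoters the count was 7 of 14, beside 45.3% of all CpG-poor genes. With hotspots at any start of a gene counted, the share within each class was thus near its own background. For claudins it was 7 of 8 CpG-rich (87.5%) and 6 of 13 CpG-poor (46.2%) promoters. The class, however, was taken at the canonical start, where CLDN2, CLDN6 and CLDN14 had no hotspot. At canonical starts alone, 10 of 21 claudins had a hotspot (47.6%), beside 70.4% of all genes. No share within classes was taken for canonical starts. The scores of the CpG-rich members were lower: the median over open CpG-rich promoters was 10.2 for claudins, 17.2 for the partners and 23.3 for all genes. Over open CpG-poor promoters it was 8.42 for claudins and 8.31 for all genes.

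**Figure D2:**
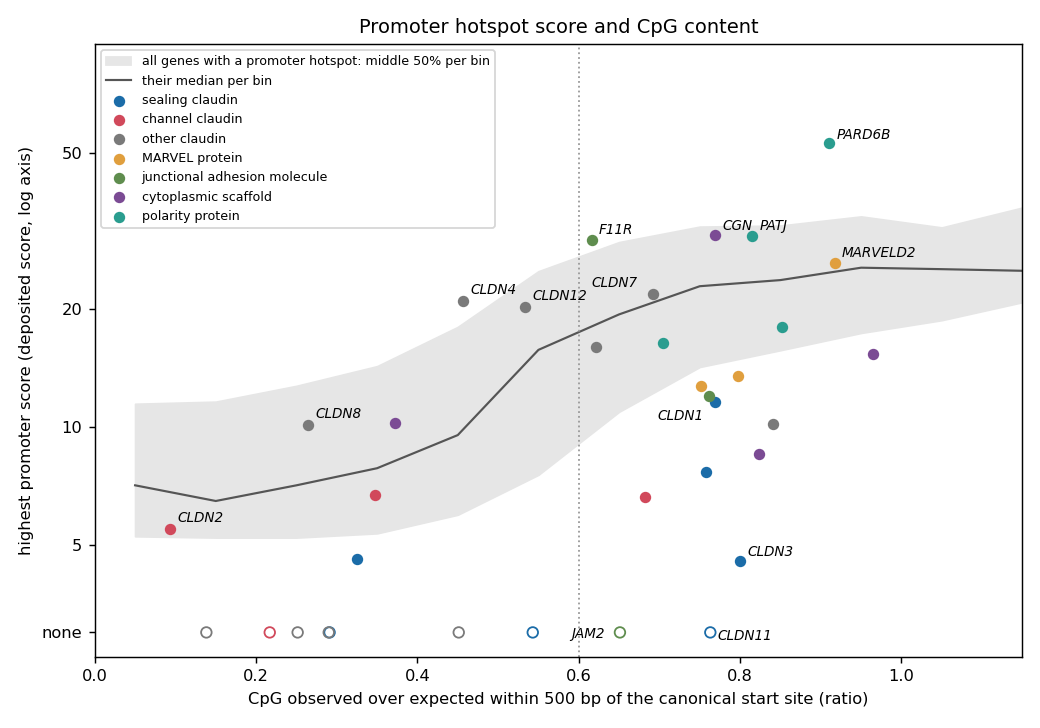
CpG ratio at the canonical start site (x axis) and highest promoter score (y axis, log scale) of the 35 genes, coloured by role, with open circles on the bottom line for genes without a promoter hotspot. The line and band give the median and middle 50% over all genes with a promoter hotspot in steps of 0.1 of the ratio, and the dotted line marks 0.6. CLDN11 and JAM2 are the only CpG-rich members on the bottom line, and CLDN4 lies above the band at a ratio of 0.456.

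Some promoters departed from their class. The sequences below show the 250 bases before the start site, on the strand of the gene, of CLDN4 and CLDN7, whose promoters had the highest scores among the claudins, of the scaffold gene CGN, and of CLDN11 and CLDN17, which had no promoter hotspot. They are from RefSeq (GRCh38.p14) at chr7:73830746-73830995, chr17:7262479-7262728, chr1:151511137-151511386, chr3:170418618-170418867 and chr21:30166806-30167055, and capitals mark CG dinucleotides.
CLDN4: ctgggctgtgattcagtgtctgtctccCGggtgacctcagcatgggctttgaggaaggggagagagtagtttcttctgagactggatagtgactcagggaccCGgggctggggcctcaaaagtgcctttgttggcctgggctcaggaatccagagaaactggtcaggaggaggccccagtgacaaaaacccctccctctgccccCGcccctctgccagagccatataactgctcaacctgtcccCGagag
CLDN7: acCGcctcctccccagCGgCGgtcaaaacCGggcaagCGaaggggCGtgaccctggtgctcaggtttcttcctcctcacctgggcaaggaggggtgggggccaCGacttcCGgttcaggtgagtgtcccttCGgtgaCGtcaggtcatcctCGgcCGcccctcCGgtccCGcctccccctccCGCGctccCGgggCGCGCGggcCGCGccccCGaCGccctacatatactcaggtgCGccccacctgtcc
CGN: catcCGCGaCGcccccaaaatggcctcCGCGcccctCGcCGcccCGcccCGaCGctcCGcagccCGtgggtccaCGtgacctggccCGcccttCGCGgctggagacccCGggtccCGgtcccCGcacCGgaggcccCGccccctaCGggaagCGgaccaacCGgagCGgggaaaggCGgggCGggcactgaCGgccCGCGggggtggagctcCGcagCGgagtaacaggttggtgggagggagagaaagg
CLDN11: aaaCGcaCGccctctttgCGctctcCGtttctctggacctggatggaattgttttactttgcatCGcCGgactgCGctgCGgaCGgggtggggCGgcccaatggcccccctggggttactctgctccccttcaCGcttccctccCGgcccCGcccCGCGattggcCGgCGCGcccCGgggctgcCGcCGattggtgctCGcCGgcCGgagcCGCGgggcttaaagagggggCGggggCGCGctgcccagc
CLDN17: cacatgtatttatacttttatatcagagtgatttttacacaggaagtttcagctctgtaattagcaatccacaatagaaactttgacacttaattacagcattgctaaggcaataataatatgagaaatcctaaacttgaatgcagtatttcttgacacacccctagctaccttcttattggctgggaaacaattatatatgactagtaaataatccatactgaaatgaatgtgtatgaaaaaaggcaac
The CLDN11 stretch held 29 CG dinucleotides and those of CLDN7 and CGN held 25 and 32, and the hotspot nearest to the CLDN11 start lay 3666 bp from it. The CLDN4 stretch, with 4, lay beneath a hotspot with a score of 21.0. The CLDN17 stretch held none and had a C and G content of 32.0%.

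Sealing claudins tighten the junction against ions and solutes. The classes of claudins were set by list, and another classing could place claudins such as CLDN4 differently. Of the 7 classed here as sealing, CLDN1, CLDN3, CLDN5 and CLDN14 had promoter hotspots and CLDN11, CLDN18 and CLDN19 had none. CLDN1, a main component of the epidermal barrier, had the highest score of the group, 11.6, in a hotspot of 683 bp over its single start site. This score exceeded 83.8% of all hotspots. CLDN5, the principal claudin of endothelium, had 2 promoter hotspots with scores of 7.69 and 5.04. At CLDN3, found in many simple epithelia, a hotspot with a score of 4.56 began 370 bp from the start site, and only 12.4% of hotspots scored lower. CLDN14, known from the inner ear and kidney, has 4 separate start regions on chromosome 21, and a hotspot of 163 bp with a score of 4.62 lay near 1 of them and not at the canonical start.

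The 3 sealing claudins without a promoter hotspot are best known from other tissues, as are CLDN5 and CLDN14, which had one. CLDN11, of myelin and the testis, had 4 assigned hotspots in 113 kb of surrounding sequence, none with a score above 5.45. CLDN18, of stomach and lung, had 12 assigned hotspots, of which the nearest lay 1634 bp from a start site and the highest scored 10.5 at 27359 bp. Both of its start regions, which give the lung and stomach isoforms, were without a hotspot. CLDN19, of kidney and eye, had 8 assigned hotspots with scores up to 7.72, the highest 3241 bp upstream of a start site.

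The channel claudins let ions through the junction. CLDN2, a cation and water channel, had promoter hotspots with scores of 5.51 and 4.48 at 2 of its 3 start regions and none at the canonical one. CLDN10 has 3 start regions, and the hotspot, with a score of 6.65, began 131 bp from the canonical start, while the start region 119 kb upstream of it was not covered. CLDN15, an intestinal cation channel, had hotspots of 6.71 and 4.63, the higher of them 834 bp from the nearest start and inside an exon of the neighbouring gene FIS1. CLDN17, an anion channel of kidney, had none, and the edge of the nearest hotspot lay 19454 bp away. No channel claudin exceeded 6.71, and 61.8% of all hotspots scored lower than that value.

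The remaining claudins held the 3 highest claudin scores. CLDN7, a claudin of lateral membranes, had a hotspot of 1244 bp with a score of 21.9 (93.9% of hotspots scored lower) over its main start region and a second of 9.35 at a start further downstream. CLDN4, which occurs widely in epithelia, had 3 promoter hotspots with scores of 21.0, 11.6 and 4.78. The first, of 1954 bp, covered the canonical start at position 73830996 of chromosome 7, and the others lay by a pair of starts near 73828174. CLDN12 had a hotspot of 869 bp with a score of 20.3 over 5 of its 6 start sites. CLDN8, of the distal nephron, had a score of 10.1 in a CpG-poor promoter with a ratio of 0.265, and CLDN23 had scores of 10.2 and 4.48.

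CLDN6, a claudin of embryonic epithelia, counted as open through a hotspot that covers another gene. Its score of 16.0 belonged to a region of 2612 bp that began 63 bp from the most upstream CLDN6 start and lay over TNFRSF12A, the gene to which it was assigned. The canonical CLDN6 start had no hotspot, and no hotspot was assigned to CLDN6. Only 3.72 kb lay nearer to its starts than to those of any other gene. CLDN9, CLDN16, CLDN20 and CLDN22 had no promoter hotspot. The nearest hotspot to CLDN9, a claudin of the inner ear, lay 2684 bp away and scored 10.5. CLDN16, which serves magnesium uptake in kidney, had 7 assigned hotspots within its annotated span, the highest at 12.0 and the nearest 1526 bp from a start. For CLDN20 and CLDN22 the nearest lay 15360 and 8484 bp away, with highest assigned scores of 6.78 and 4.48.

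All 3 genes for MARVEL-domain proteins were open at the promoter. MARVELD2, which encodes tricellulin of tricellular contacts, had a score of 26.3 in 643 bp, higher than 95.7% of hotspots. OCLN, encoding occludin, had scores of 13.5 and 4.55 at its main start region, and MARVELD3 had 12.8 and 5.34. Part of OCLN has a near-identical duplicate on chromosome 5, so reads there may have been placed at either copy. Among the junctional adhesion molecules, F11R, the form common in epithelia, had a hotspot of 1575 bp with a score of 30.1. JAM3 had a score of 12.0 at its start. JAM2, expressed in endothelium, had no hotspot at the start of a coding transcript and no assigned hotspot at all in 63.5 kb, although its CpG ratio of 0.651 placed it in the CpG-rich class. The 5 Mb around JAM2 were also the poorest among the 35 genes, with 22.0 hotspots per Mb beside 58.8 over the genome.

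Of the cytoplasmic scaffolds, CGN (cingulin) stood highest with 30.9, in a hotspot of 967 bp, close to the scores of PATJ and F11R. TJP1, encoding ZO-1, had a score of 15.4 over 1257 bp at the start region that holds 6 of its 8 start sites, while the regions 146 kb upstream and 114 kb downstream of it had none. CGNL1 (paracingulin) had 8.57. TJP3, encoding ZO-3, had 4 promoter hotspots and no other assigned one. At its canonical start region the scores were 5.46 and 4.86, and at a second region 13353 bp downstream they were 10.3 and 5.78.

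The polarity genes had the highest median promoter score of any role, 24.4. PARD6B, whose product joins Par3 and atypical protein kinase C, had a hotspot of 1917 bp with a score of 53.2, higher than 99.5% of all hotspots. It lies at chr20:50731580-50756795 in a stretch with 136 hotspots per Mb, the highest value around any of the 35 genes, and chromosome 20 as a whole held 138 per Mb. The part that the dense stretch plays in this score was not tested. PATJ, a scaffold of the Crumbs complex, had 30.8 over its canonical start, and none of its 4 other start regions had a hotspot. PARD3, the Par3 gene, had 18.0 at the first of 4 start regions. CRB3, an apical membrane protein of the Crumbs complex, had 16.5, in a hotspot that also lay within 1000 bp of a start of SLC25A23.

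Several genes have start sites far apart, so hotspots were also counted by start region. When starts within 1000 bp of each other were joined, the 35 genes had 62 start regions, of which 30 had a hotspot. For the 16 genes with more than 1 region, 19 of 43 regions were covered. Hotspots at more than 1 region were seen at 4 of these genes, namely CLDN2, CLDN4, CLDN7 and TJP3. CLDN2, CLDN6 and CLDN14 were covered only away from the canonical start. Start regions were not counted over all protein-coding genes, so none of these counts can be called particular to the set.

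In all, 304 hotspots, at promoters and beyond, were assigned to 33 of the 35 genes (94.3%), and 92.3% of all protein-coding genes had at least 1. The median was 6 per gene, and 5 over all genes. Per 100 kb of the sequence nearer to a gene's starts than to any other gene's, the median was 9.79 hotspots for the set and 8.05 for all genes, with no estimate of error for either. The largest counts were 40 at PARD3, 33 at CLDN10, 22 at CLDN14, 15 at JAM3 and 14 at TJP1. PARD3 held 590 kb and its density was 6.78 per 100 kb. This and the 3.63 of TJP1 were below the general median, whereas JAM3 had 14.9, CLDN10 14.1 and CLDN14 10.4. CRB3, with 2 hotspots in 3.08 kb, both at its promoter, had 64.9 per 100 kb, CLDN15 had 36.1 and CLDN4 had 29.1.

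**Figure D3:**
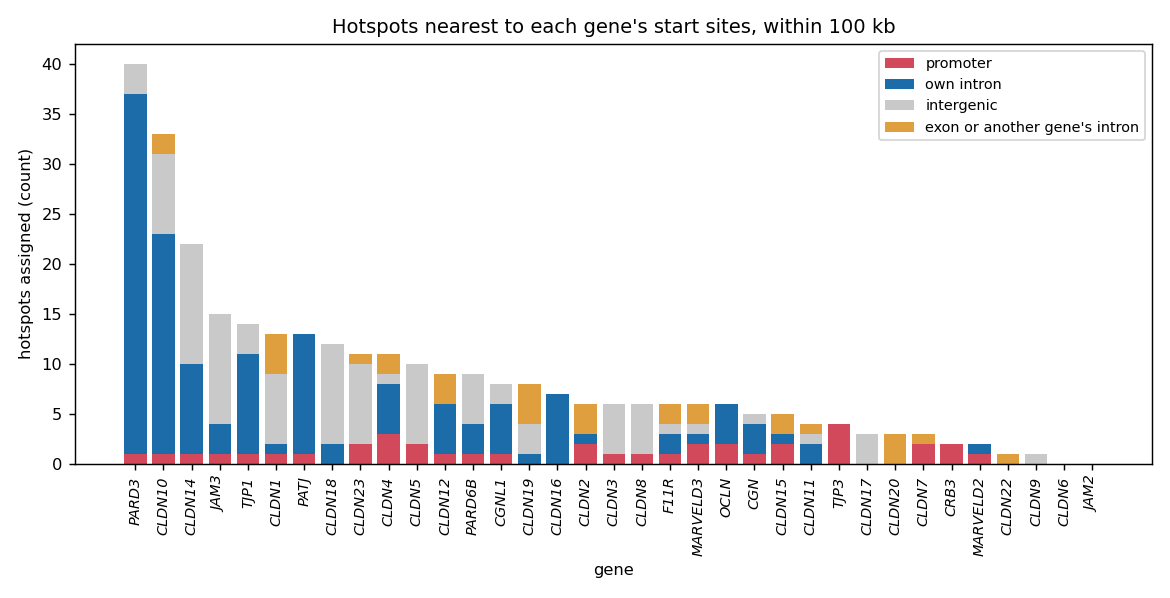
Number of hotspots assigned to each of the 35 genes, stacked by position. Positions are within 1000 bp of a protein-coding start site, in the gene's own intron, between genes, or in an exon or another gene's intron. Introns are parts of a gene's annotated span outside the exons of its coding transcripts. Counts run from 40 at PARD3 to 0 at CLDN6 and JAM2, and most hotspots of PARD3, CLDN10, TJP1 and PATJ are in their own introns.

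Of the 304 assigned hotspots, 266 were distal, that is more than 1000 bp from every protein-coding start site. Intron here means any part of a gene's annotated span outside the exons of its coding transcripts, and exons of other transcripts were not set apart. By this rule 136 of the 266 lay in introns of the gene itself and 21 in introns of other genes. A further 99 lay between genes and 10 in exons. The median score of the 266 was 5.64, and that of all 113314 assigned distal hotspots was 5.61. The median distance of the 266 from a start of the gene was 24076 bp. The highest scores were at claudins: 32.8 at CLDN4 and 27.3 at CLDN14. PARD6B followed with 22.4, CLDN8 with 21.0, PATJ with 19.9, CLDN23 with 19.5 and CLDN1 with 19.1. The balance between promoter and distal hotspots differed in count between claudins and partners. Of the 12 claudins with both kinds, 10 had a distal hotspot that scored above the promoter of the gene itself, CLDN7 and CLDN12 being the exceptions. Of the 11 partners with both kinds only JAM3 did, with 18.1 at a distance of 44233 bp and 12.0 at its promoter. Over all 12421 protein-coding genes with both kinds the share was 31.5%, and over the set 47.8% (11 of 23). No share was taken within CpG classes, although most claudin promoters were CpG-poor and such promoters scored lower over all genes. Nor were genes matched for the number of distal hotspots over which the highest was taken. That number was 32 at CLDN10, 21 at CLDN14 and 1 at CLDN7, and 39 at PARD3, whose promoter scored higher. Distal and promoter scores lay close at CLDN5 (8.56 and 7.69) and CLDN2 (6.92 and 5.51) and far apart at CLDN14 (27.3 and 4.62).

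The central 300 bp of the strongest distal hotspot are shown for 5 genes to give the sequence under some of the highest distal scores (those of PATJ and CLDN23, above that of CLDN1, are not shown), on the forward strand of hg38, with matches to any of the 15 motifs searched in capitals. The CLDN4 stretch is chr7:73822645-73822944, within the annotated span of CLDN4 but before its coding transcripts, 8201 bp upstream of the canonical start. That of CLDN14 is chr21:36430100-36430399, between genes. Those of PARD6B, CLDN8 and CLDN1 are chr20:50761662-50761961, chr21:30227654-30227953 and chr3:190265897-190266196, also between genes.
CLDN4: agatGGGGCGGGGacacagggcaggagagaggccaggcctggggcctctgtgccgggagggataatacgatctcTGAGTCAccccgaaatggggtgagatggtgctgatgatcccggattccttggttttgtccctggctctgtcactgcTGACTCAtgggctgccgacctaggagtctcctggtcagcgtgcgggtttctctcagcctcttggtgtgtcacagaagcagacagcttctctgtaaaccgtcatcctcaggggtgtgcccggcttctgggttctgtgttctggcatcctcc
CLDN14: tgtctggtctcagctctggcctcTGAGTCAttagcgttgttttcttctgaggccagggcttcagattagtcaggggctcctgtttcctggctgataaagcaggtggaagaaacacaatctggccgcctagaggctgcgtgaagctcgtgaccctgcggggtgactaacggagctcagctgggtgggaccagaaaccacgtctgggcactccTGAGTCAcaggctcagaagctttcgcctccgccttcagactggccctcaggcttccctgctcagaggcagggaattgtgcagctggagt
PARD6B: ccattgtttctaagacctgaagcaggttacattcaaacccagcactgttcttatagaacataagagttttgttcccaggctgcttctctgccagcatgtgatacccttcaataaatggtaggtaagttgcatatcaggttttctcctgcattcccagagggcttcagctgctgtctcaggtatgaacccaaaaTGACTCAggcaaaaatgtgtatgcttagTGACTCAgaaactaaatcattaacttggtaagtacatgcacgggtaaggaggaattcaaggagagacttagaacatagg
CLDN8: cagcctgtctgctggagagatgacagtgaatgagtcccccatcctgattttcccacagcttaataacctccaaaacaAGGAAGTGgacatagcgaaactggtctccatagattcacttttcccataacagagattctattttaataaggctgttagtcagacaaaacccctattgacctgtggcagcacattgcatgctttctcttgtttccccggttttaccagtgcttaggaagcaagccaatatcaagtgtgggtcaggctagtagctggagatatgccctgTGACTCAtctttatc
CLDN1: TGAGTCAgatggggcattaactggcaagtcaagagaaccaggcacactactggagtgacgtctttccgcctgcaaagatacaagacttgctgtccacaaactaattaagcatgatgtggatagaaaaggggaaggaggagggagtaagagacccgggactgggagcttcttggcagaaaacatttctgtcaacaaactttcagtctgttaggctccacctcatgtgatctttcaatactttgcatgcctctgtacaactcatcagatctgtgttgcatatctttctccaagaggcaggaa
Each of these 5 stretches held the AP-1 site, TGAGTCA or TGACTCA, which is bound by FOS and JUN proteins. CLDN4, CLDN14 and PARD6B held 2 sites each. The CLDN4 stretch also held GGGGCGGGG, a site of SP and KLF factors, at bases 5 to 13, and that of CLDN8 held AGGAAGTG, an ETS-type site of ELF and EHF factors, at bases 78 to 85. In CLDN1 the site was at bases 1 to 7, at the edge of the window. The strongest distal hotspot of PATJ, in its own intron, held no match and contained a run of 69 A bases. That of CLDN23 held a p53 family match and no AP-1 site. As PATJ and CLDN23 were left out, the presence of the site in all 5 stretches follows from the choice.

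**Figure D4:**
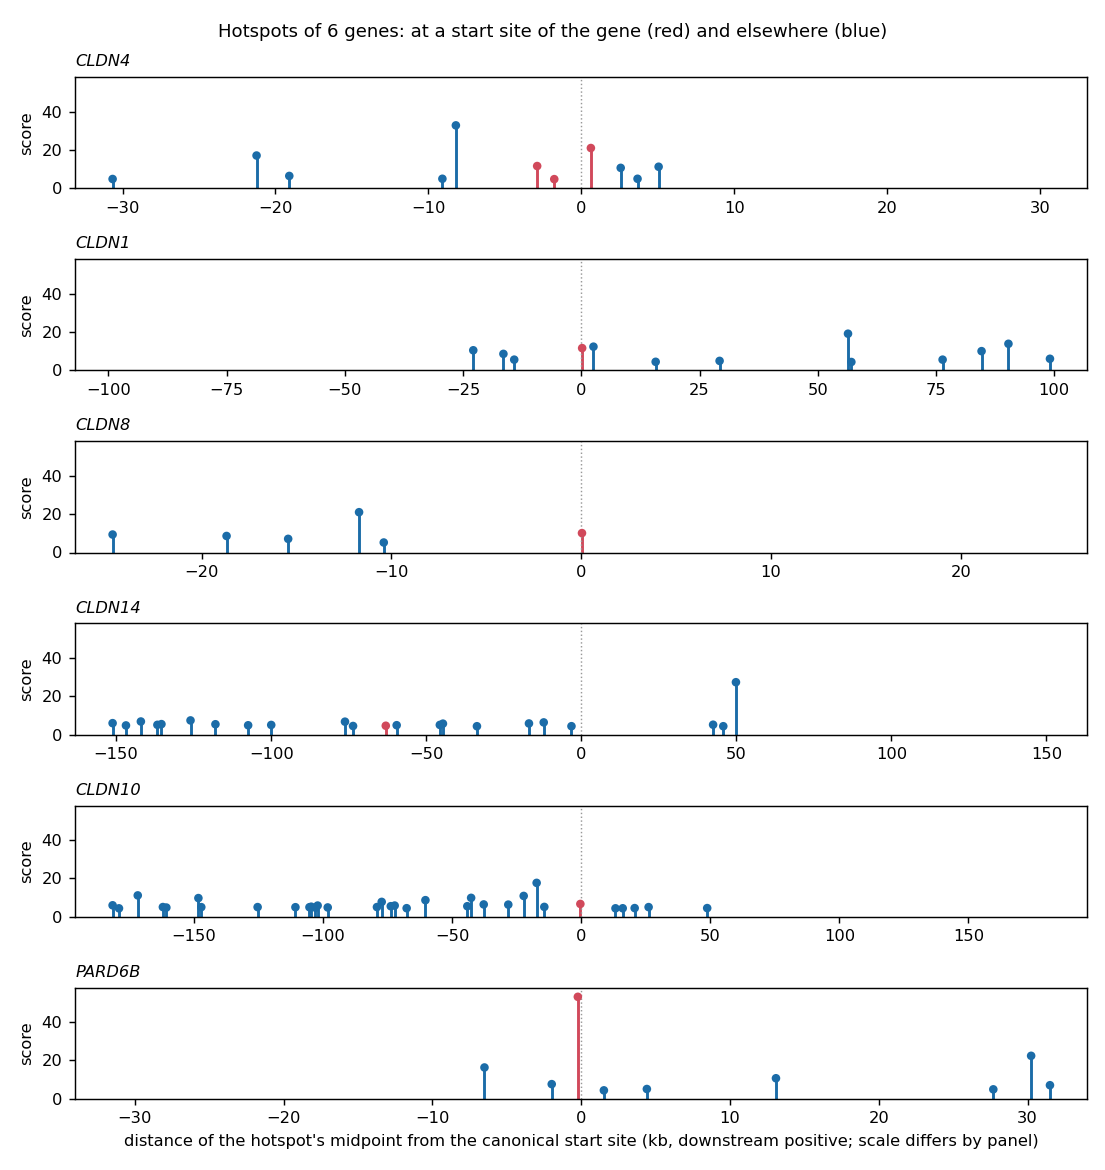
Hotspots of CLDN4, CLDN1, CLDN8, CLDN14, CLDN10 and PARD6B by distance of the midpoint from the canonical start site (x axis, kb, downstream positive, scale differs by panel) and score (y axis). Red marks hotspots within 1000 bp of any start of the gene and blue the others. The tallest line is away from the start at 5 of the 6 genes and at the start of PARD6B (53.2).

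The AP-1 site was present in 45 of the 266 distal hotspots, or 16.9% (95% Wilson interval 12.9 to 21.9, counting error only), and in 12.0% of all assigned distal hotspots. The hotspots of 1 gene share a neighbourhood, so the interval treats as independent what may not be, and it is no test against the general share. The gap depended on the window searched. In the central 120 bp the share was 7.14%, beside 6.26% of all distal hotspots. Over the whole hotspot it was 19.2%, beside 13.2%. In the central 300 bp the share was 12.9% for claudins (20 of 155) and 22.5% for their partners (25 of 111). PARD3 alone held 10 of these, and without PARD3 the share was 20.8% for the partners (15 of 72) and 15.4% for the set (35 of 227). Among the distal hotspots above the median score of the list, 30 of 127 had the site (23.6%), beside 16.0% of all such distal hotspots. Of the rest it was in 15 of 139 (10.8%), beside 8.61%. The strongest distal hotspot held it at 9 of 31 genes (29.0%), and at 16.3% of all 16227 genes with a distal hotspot.

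The other motifs were rarer. TEAD sites, ACATTCC, were in 12 of the 266 (4.51%) and in 4.44% of all distal hotspots, and the CTCF motif was in 2 (0.752%), against 1.04%. AGGAAGTG was found in 14 (5.26%), beside 3.07% of all. RUNX sites, AACCACA, were in 14 (5.26%) and the Grainyhead-like motif, AACCNGTT or AACTNGTT, in 9 (3.38%), beside 5.70% and 3.77%. The glucocorticoid receptor motif, whose ligand hydrocortisone was in the medium, was in 3 (1.13%), at CLDN1, CLDN5 and MARVELD3, beside 0.244%. The scores of these hotspots were 5.61, 4.54 and 4.48. Both strands were searched, and a match is a string of letters and no evidence of a bound factor.

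**Figure D5:**
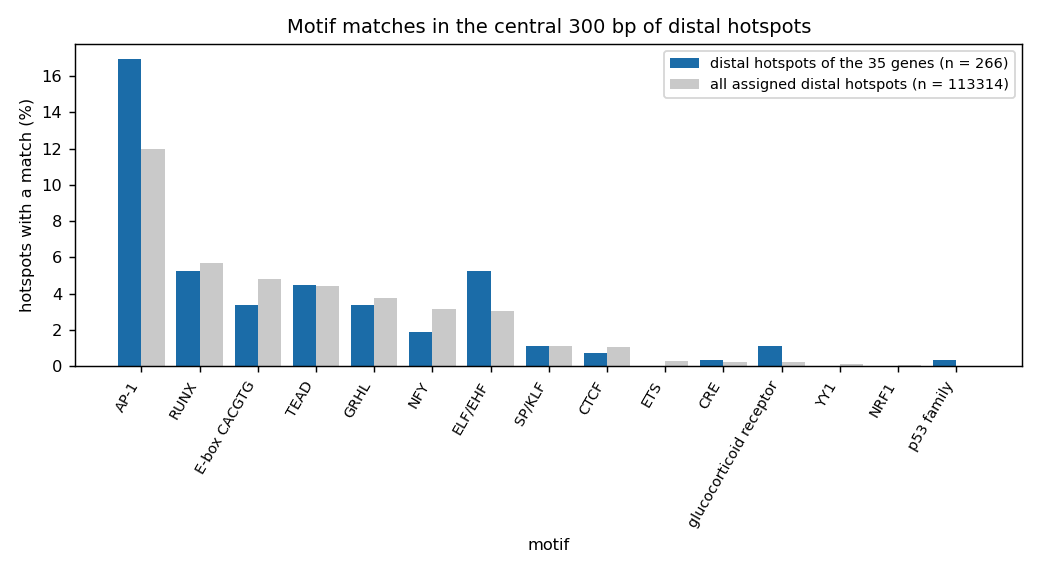
Share of distal hotspots with at least 1 match in the central 300 bp (y axis, %) for each of 15 motifs (x axis), for the 266 hotspots of the tight junction genes and for all 113314 assigned distal hotspots. AP-1 is the most frequent in both, with 16.9% and 12.0%, and every other motif is below 6% in both.

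In the promoters, windows from 250 bases before to 50 after the start were searched in the RefSeq table, which has entries for 24 of the 35 genes, 37 in all. GGGGCGGGG was in 11 of the 37 windows (29.7%), of 11 genes that included CGN, TJP1, PATJ and CLDN11, and in 20.9% of the 21505 windows of protein-coding genes. The AP-1 site was in those of CLDN4 and CLDN15 and in 4.05% of all. CLDN7 held CCGGAAGT, a general ETS site, and TGACGTCA, the cyclic AMP response element, which were in 5.40% and 2.29% of all windows. CGN held the Grainyhead-like motif (2.55% of all) and the E-box CACGTG (8.33% of all). The entries do not include CLDN5, CLDN8, CLDN9, CLDN19, CLDN23, F11R, JAM2, JAM3, MARVELD3, PARD3 and PARD6B.

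Some members of the set are neighbours in the genome. The canonical starts of CLDN3 and CLDN4 lie 60726 bp apart on chromosome 7 with no start of another protein-coding gene between them. CLDN3 had promoter and nearby scores of at most 5.02. A further 2 hotspots, at 16.7 and 10.8, lay 27135 and 27839 bp from it on the side of CLDN4. They were nearer to CLDN3 by coding start sites only. The annotated span of CLDN4 begins at 73799542, closer to both hotspots, but its coding transcripts start at 73827744 and beyond. On chromosome 16, CLDN6 and CLDN9 start 5260 bp apart and shared the lack of a hotspot at their canonical starts. On chromosome 21 CLDN8 had 6 hotspots, 5 of them upstream within 24691 bp, and CLDN17, 49292 bp away, had 3, the nearest with its midpoint at 19822 bp. OCLN and MARVELD2, 77674 bp apart on chromosome 5, were both open at the promoter, in a stretch with only 32.4 hotspots per Mb around OCLN.

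CLDN1 and CLDN16 lie head to head on chromosome 3. The annotated span of CLDN16 begins 95 bp from the CLDN1 start, but its coding transcripts start 65.6 kb further on, at 190388120 and 190388163. The CLDN1 promoter hotspot therefore also covered the start of a CLDN16 transcript that is not annotated as coding. Of the hotspots assigned to CLDN1, 3 lay within the annotated span of CLDN16, before its coding starts. Their scores were 10.5, 8.62 and 5.61. CLDN1 had 13 assigned hotspots, and 7 of them lay beyond the end of the gene, between 29246 and 99100 bp from its start.

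A further 30 genes of the junction and polarity pathway were counted for comparison. Of these, 27 had a promoter hotspot, beside 74.7% of all protein-coding genes. Their median highest score was 19.1, beside 20.7 over all genes with a promoter hotspot. The general median was reached by 12 of the 30, beside 37.6% of all genes. CpG-rich promoters made up 24 of the 30, beside 66.8% of all genes, and 89.6% of all CpG-rich genes had a promoter hotspot. No share was taken within CpG classes for this list, so its count cannot be called particular to the pathway. The highest promoter scores were those of SYMPK (symplekin) with 41.4 and MAGI3 and PALS1, both scaffold genes, with 38.3 each. CLDN24, IGSF5 and CRB1 had no promoter hotspot. LSR, which encodes an angulin of tricellular contacts, had 28.9.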

How the data were processed

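The data were 1 hotspot list from ATAC-seq of 5 MCF10A replicates. Per the study's methods, 75-base reads were aligned to hg38 with Bowtie2, replicates were merged, duplicates were removed and regions were called with Hotspot at a false discovery rate of 0.01. The deposited score of each region has no stated scale, and was used for ranks only; no depth was given, and the study's scripts removed mitochondrial reads from files of read positions, but whether the alignments given to Hotspot were so filtered or shifted for the transposase cut was not given in the sources used here. Merging gives each replicate weight by its depth, and gained or multi-copy sequence can raise the number of calls.

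Start sites were those of coding transcripts of GENCODE 44 (78043 sites, read-through genes left out). Hotspots went by midpoint to the nearest start within 100 kb, which took 73.1% of them. Motifs were exact matches on both strands of the central 300 bp. Python 3.11.15, numpy 2.4.6, pandas 2.3.3, pysam 0.24.0 and samtools 1.23.1 were used, and assignment and motif search were tested on simulated data. No test was run, since replicates were pooled. The genes, lists and motifs were chosen with earlier results of these data known. Values are given in full for the 10 highest promoter scores, the 5 largest assigned counts, every gene without a promoter hotspot and neighbouring pairs; other named values were chosen after they were seen.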

Additional observations from a re-analysis of the deposited data

How the results depend on the processing

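The count of 26 genes with a promoter hotspot stayed between 23 and 28 under other windows (500 and 2000 bp), a score limit, the midpoint rule and canonical starts, and that of the claudins between 10 and 15 of 21. Claudins numbered 10 (47.6%) both above the median score and with canonical starts. The share over all genes was 71.7% (500 bp), 78.6% (2000 bp), 67.1% (score limit), 73.8% (midpoint) and 70.4% (canonical starts). With the starts of all transcripts, an alternative chosen after seeing the data, the counts were 28 and 14, beside 77.4% of all genes, and the genes added were JAM2 and CLDN16. The median of the highest promoter score was 12.8 by midpoint and 13.5 at canonical starts. The median of assigned hotspots was 4 with hotspots above the median score and 4 when all annotated genes competed (2 over all genes in both). The median density was 8.67 within 50 kb, 4.23 above the median score and 10.3 with canonical starts, beside 8.15, 3.82 and 8.07 over all genes. The AP-1 share was 7.14% in the central 120 bp, beside 6.26% of all distal hotspots, and 23.6% above the median score, beside 16.0%; the cause was not tested. No paired analysis was possible because the replicates were merged before calling and form 1 group, and for the same reason no replicate could be left out. Depth is unknown, so a gene without a hotspot had none detectable in the pooled list.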
